A study of Mus musculus with 6 samples.

Results

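Collagen chain genes were taken as all mouse genes whose symbol reads Col, a number, the letter a and a number. This rule found 44 chains among the 27179 genes of the bulk count table, and the same number among the 30750 gene columns of the single-cell tables. By the structure of the protein they fall into 11 fibrillar, 6 basement membrane, 6 beaded, 9 FACIT, 2 multiplexin, 3 network-forming and 4 transmembrane chains, with 3 others (Col7a1, Col26a1 and Col28a1). The rule reads symbols only, but it was set with earlier results of these data known.

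The data come from cultures of C57BL/6 mouse heart cells. Immature cardiomyocytes (imCMs) from newborn hearts were grown together with cardiac fibroblasts from neonatal hearts (NFs, group imCM-NF) or from adult hearts (AFs, group imCM-AF), to ask how the age of the fibroblasts bears on the cardiomyocytes. For bulk RNA-Seq, cardiomyocytes were sorted out of the co-culture by fluorescent dye and sequenced in 2 libraries per group. A further 2 libraries, 1 labelled cardiomyocytes and 1 labelled fibroblasts, hold single cells on a nanowell chip (ICELL8). There transcripts are counted by unique molecular identifier (UMI). All fibroblasts had been passaged before co-culture, and the adult ones were plated more densely. Whether libraries of a group came from separate cultures is not stated, so p values measure the spread between these libraries, which may be technical.

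Collagens are trimeric matrix proteins. Each chain is made in the endoplasmic reticulum, where prolyl and lysyl residues are hydroxylated, and chains then fold into a triple helix before they are secreted, trimmed and crosslinked. Fibrillar collagens build the tensile fibres of the heart and are known mainly from fibroblasts. Type IV collagens form the sheet of the basement membrane, which surrounds cardiomyocytes and vessels. FACIT chains (fibril-associated collagens with interrupted triple helices) decorate fibrils, beaded type VI collagens form microfilaments around cells, and multiplexins lie where basement membrane meets matrix.

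Bulk libraries held between 9278909 and 12088577 counts, and 14041 genes passed the filter of over 1 CPM (count per gene scaled to the library total) in at least 2 libraries. Of the 44 chains, 34 were tested. Of these, 30 were over the filter in both libraries of both groups and 4 (Col2a1, Col9a1, Col9a2 and Col13a1) passed through some libraries of each group. Not tested, for low counts, were Col6a4, Col6a5, Col6a6, Col8a2, Col10a1, Col17a1, Col19a1, Col25a1, Col26a1 and Col28a1, none of which exceeded 1 CPM in any library. RNA from fibroblasts in a sorted cardiomyocyte library and RNA made by cardiomyocytes cannot be told apart in bulk, nor can fewer cells of a type and less RNA per cell.

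In cardiomyocytes grown with adult fibroblasts, collagen transcripts were lower across most classes. Of the 34 chains tested, 17 were lower in imCM-AF and 3 were higher, by the edgeR quasi-likelihood test (adjusted p below 0.05, log2 fold change beyond 0.58 either way), and 14 were not called. Over all tested genes, 4.99% were called lower and 6.15% higher. The median log2 fold change was -0.59 over the chains and 0.00 over all genes. The libraries of the groups did not overlap for 27 chains, 20 of them lower in imCM-AF, and 7 higher, against 65.9% of all genes in either direction, 33.9% lower and 32.1% higher. Fold changes were below 0 for 24 of the 34 chains, against 49.9% of all genes. By class, 8 of 11 fibrillar, 2 of 6 basement membrane, 3 of 3 tested beaded, 2 of 8 tested FACIT and 2 of 2 multiplexin chains were lower. The higher chains were 1 fibrillar and 2 FACIT, all at low level.

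**Figure D1:**
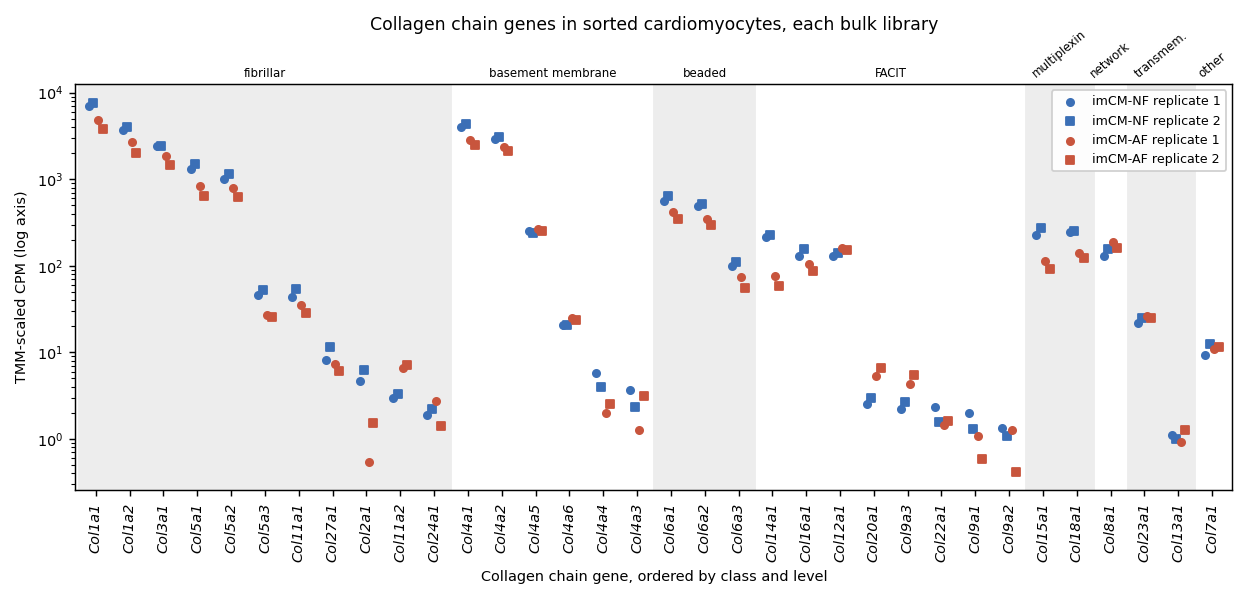
TMM-scaled CPM on a log axis of the 34 tested collagen chains, ordered by class and level, with 1 point per bulk library (blue imCM-NF, red imCM-AF). The levels run from 7699.7 CPM for Col1a1 to 0.42 CPM for Col9a2, and the red points lie under the blue ones for most fibrillar, beaded and multiplexin chains.

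**Figure D2:**
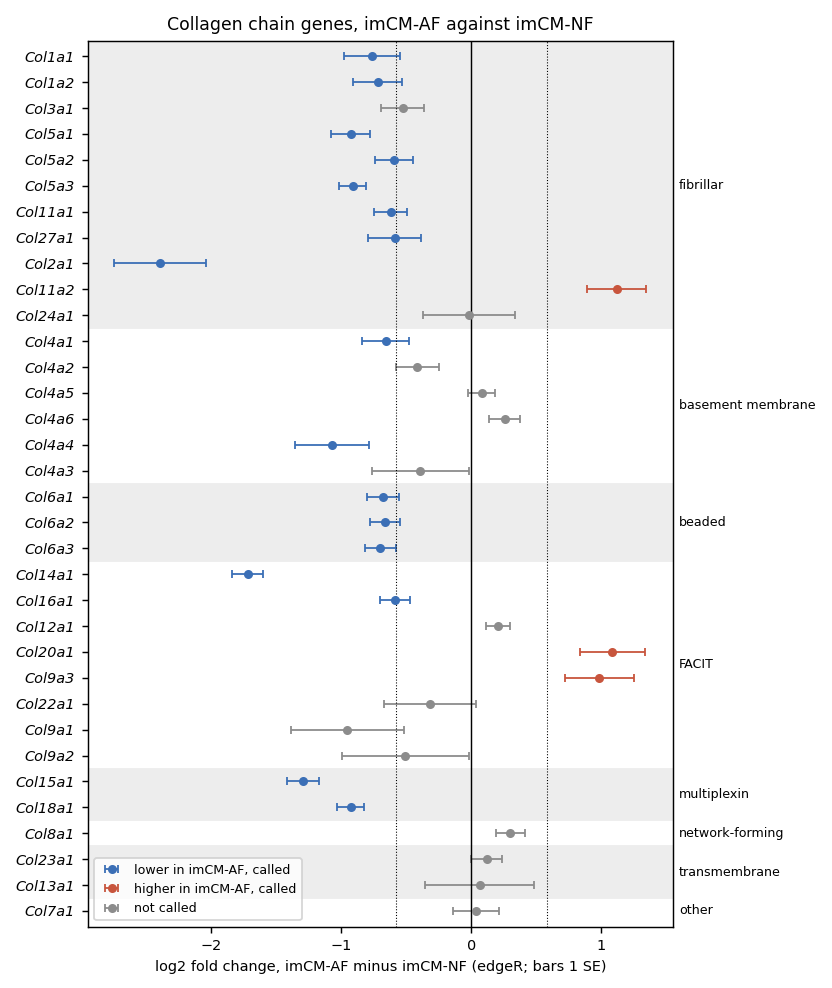
Log2 fold change of each tested chain, imCM-AF minus imCM-NF, with bars of 1 SE and dotted lines at the fold threshold of 0.58. The 17 chains in blue were called lower and the 3 in red higher, and Col2a1 and Col14a1 lie farthest to the left.

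The fibrillar chains made up most collagen RNA, and type I led them. Col1a1, which encodes the alpha 1 chain of type I collagen, the main fibre of the heart, stood at 6937 and 7699.7 CPM with NFs and at 4872 and 3758 CPM with AFs. Its partner Col1a2 stood at 3686 and 4068 CPM with NFs and at 2666 and 2037 CPM with AFs. Both imCM-AF libraries lay under both imCM-NF libraries for each gene. Col1a1 fell by 0.76 ± 0.21 on the log2 scale (SE, n = 2 per group, edgeR adjusted p 0.0143) and Col1a2 by 0.72 ± 0.19 (edgeR adjusted p 0.00887). Per kilobase of transcript, Col1a1 stood first of all chains in both groups, at 1234 CPM per kb in imCM-NF and 728 in imCM-AF, and Col1a2 second, at 725 and 439.6.

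Type V chains, which regulate the width of type I fibrils, also fell. Col5a1 stood at 1325 and 1484 CPM with NFs and at 836 and 638 CPM with AFs, Col5a2 had 994 and 1146 CPM against 794 and 625 CPM, and Col5a3 had 46.2 and 52.1 CPM against 26.8 and 25.5 CPM. None of these overlapped between groups. The log2 fold changes were -0.93 ± 0.15 for Col5a1 (edgeR adjusted p 0.000326), -0.59 ± 0.15 for Col5a2 (edgeR adjusted p 0.00629) and -0.91 ± 0.11 for Col5a3 (edgeR adjusted p 1.06e-05). Col3a1, the type III chain of distensible tissue, stood at 2394 and 2421 CPM with NFs and at 1863 and 1475 CPM with AFs. Its log2 fold change of -0.53 ± 0.17 had an edgeR adjusted p of 0.0254 but lay just short of the fold threshold, so it was not called. On the other side of that threshold stood Col16a1 at -0.58, Col27a1 at -0.59 and Col5a2.

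Minor fibrillar chains moved in both directions. Col11a1, a partner of type V chains, stood at 43.6 and 54.6 CPM with NFs and at 35.7 and 28.6 CPM with AFs (log2 fold change -0.62 ± 0.13, edgeR adjusted p 0.00166). Col27a1 had 8.24 and 11.6 CPM against 7.38 and 6.04 CPM (-0.59 ± 0.21, edgeR adjusted p 0.0417). Col2a1, the cartilage chain, showed the largest fall of all chains, from 4.68 and 6.27 CPM to 0.55 and 1.51 CPM (-2.39 ± 0.35, edgeR adjusted p 0.00012), at a level near the filter. In contrast, Col11a2 was higher, at 3.01 and 3.30 CPM with NFs and 6.56 and 7.21 CPM with AFs (1.12 ± 0.23, edgeR adjusted p 0.00186).

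The starts of these genes differ in sequence, and 3 of them are shown because their transcripts fell together. Each stretch is the 250 bases before the RefSeq start on GRCm38.p6 (the assembly of mm10), less the last 44 for Col5a1, where another RefSeq transcript starts earlier, written 5′ to 3′ on the strand of the gene, with capitals at every GC box (GGGCGG or CCGCCC) and CCAAT box (CCAAT or ATTGG). Col1a2 lies at chr6:4505368-4505617 on the plus strand, Col5a1 at chr2:27886175-27886380 on the plus strand and Col6a1 at chr10:76726045-76726294 on the minus strand.
Col1a2: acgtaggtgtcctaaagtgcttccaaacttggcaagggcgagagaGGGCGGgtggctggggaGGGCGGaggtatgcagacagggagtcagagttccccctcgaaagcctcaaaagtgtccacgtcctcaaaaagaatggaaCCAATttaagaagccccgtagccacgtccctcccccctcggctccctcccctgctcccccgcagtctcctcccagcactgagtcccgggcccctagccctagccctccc
Col5a1: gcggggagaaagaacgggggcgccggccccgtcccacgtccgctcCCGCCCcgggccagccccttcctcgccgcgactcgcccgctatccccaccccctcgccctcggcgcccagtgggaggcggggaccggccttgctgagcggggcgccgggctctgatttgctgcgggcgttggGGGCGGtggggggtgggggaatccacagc
Col6a1: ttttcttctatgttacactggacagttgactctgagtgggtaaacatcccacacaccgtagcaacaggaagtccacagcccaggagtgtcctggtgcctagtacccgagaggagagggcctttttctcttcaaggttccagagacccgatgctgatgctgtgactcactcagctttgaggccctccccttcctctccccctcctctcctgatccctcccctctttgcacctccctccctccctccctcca
The Col1a2 window held 2 GC boxes and 1 CCAAT box, that of Col5a1 held 2 GC boxes, and that of Col6a1 held neither. Over the 35 chains with a RefSeq promoter entry, searching the 250 bases before the start on both strands, 21 held a GC box (60%, against 35.4% of 27025 genes) and 13 a CCAAT box (37.1%, against 37.5%). A match of letters is a description and not a measured binding site.

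Among the basement membrane chains, Col4a1 and Col4a4 fell and the other 4 were not called. Col4a1 and Col4a2 encode the chains of the common type IV network and lie head to head on chromosome 8. Their starts overlap on GRCm38, where the RefSeq gene spans share the stretch from 11312805 to 11312889. The 22 bases shared by the 1 transcript of each gene used here are at chr8:11312805-11312826. They are written on the plus strand with the GC box in capitals.
Col4a1 and Col4a2: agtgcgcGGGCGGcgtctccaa
Col4a1 stood at 4033 and 4369.7 CPM with NFs and at 2856 and 2470.3 CPM with AFs (log2 fold change -0.66 ± 0.18, edgeR adjusted p 0.013). Col4a2 had 2929.7 and 3055 CPM against 2352 and 2134 CPM. It also did not overlap between groups, but its log2 fold change of -0.42 ± 0.17 was not called (edgeR adjusted p 0.0741). Col4a5, a chain of the type IV network found around muscle, stood at 251.7 and 237 CPM with NFs and at 267 and 249.7 CPM with AFs, with overlapping groups and a log2 fold change of 0.08 ± 0.10. Its neighbour Col4a6 had 20.5 CPM in both imCM-NF libraries and 25.2 and 23.9 CPM in imCM-AF (0.26 ± 0.12, edgeR adjusted p 0.12, not called). Of the kidney-type pair, Col4a4 fell from 5.79 and 3.96 CPM to 2.01 and 2.52 CPM (-1.07 ± 0.29, edgeR adjusted p 0.0106), while Col4a3 had overlapping groups.

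All 3 tested chains of beaded type VI collagen were lower, with nearly equal fold changes. Col6a1 stood at 564 and 648 CPM with NFs and at 414.5 and 343 CPM with AFs (log2 fold change -0.68 ± 0.13, edgeR adjusted p 0.000901). Col6a2, its neighbour on chromosome 10, had 488 and 521 CPM against 343 and 294 CPM (-0.66 ± 0.12, edgeR adjusted p 0.000557). Col6a3, which makes up the trimer with them, had 100.2 and 111 CPM against 74.5 and 55.8 CPM (-0.70 ± 0.12, edgeR adjusted p 0.000394).

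Among FACIT chains, Col14a1, which binds fibrils in tissue under tension, had the smallest adjusted p of all chains. It fell from 215 and 228 CPM to 76.5 and 58.1 CPM (-1.72 ± 0.12, edgeR adjusted p 3.75e-08). Col16a1 stood at 128 and 157 CPM with NFs and at 104.4 and 86.1 CPM with AFs (-0.58 ± 0.11, edgeR adjusted p 0.00133). Col12a1, a close relative of Col14a1, went the other way without a call, at 131 and 139 CPM against 159.6 and 152 CPM (0.21 ± 0.10, edgeR adjusted p 0.118). Rare chains went both ways. Col9a1 (-0.95 ± 0.43), Col9a2 (-0.51 ± 0.49) and Col22a1 (-0.32 ± 0.35) were below 0 without a call, while Col9a3 and Col20a1 were higher. Col9a3 stood at 2.23 and 2.64 CPM with NFs and at 4.28 and 5.45 CPM with AFs (0.99 ± 0.27, edgeR adjusted p 0.0118), and Col20a1 had 2.56 and 2.97 CPM against 5.29 and 6.54 CPM (1.09 ± 0.25, edgeR adjusted p 0.00434).

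Both multiplexins fell. Col15a1, a chain of the muscle and capillary basement membrane zone, stood at 226 and 277 CPM with NFs and at 113 and 92.1 CPM with AFs (-1.30 ± 0.12, edgeR adjusted p 9.07e-07). Col18a1, whose C-terminal fragment is endostatin, had 244 and 254 CPM against 139 and 123 CPM (-0.93 ± 0.10, edgeR adjusted p 5.68e-06). The network-forming chain Col8a1, known from vessel walls, did not follow, with 130.2 and 156 CPM with NFs and 190.1 and 163 CPM with AFs. Its groups did not overlap, but its log2 fold change of 0.30 ± 0.11 was not called (edgeR adjusted p 0.0539). The transmembrane chains Col23a1 (0.12 ± 0.12) and Col13a1 (0.06 ± 0.42) and the anchoring fibril chain Col7a1 (0.04 ± 0.18) had small log2 fold changes.

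Summed over all 44 chains, collagen transcripts took 24961 and 27178 CPM with NFs and 18283 and 14908 CPM with AFs. The log2 ratio of the group means was -0.65 for all chains, -0.72 for fibrillar, -0.52 for basement membrane, -0.67 for beaded, -0.62 for FACIT and -1.10 for multiplexin chains. For each of these sums both imCM-AF libraries lay under both imCM-NF libraries, with a two-sided exact permutation p of 0.333, the smallest that 2 against 2 libraries allow. The network-forming sum, nearly all Col8a1, had a log2 ratio of 0.30. Without that chain it was -0.55, which rests on Col8a2 and Col10a1, both too low to be tested. The FACIT ratio rested on Col14a1. Without that chain the FACIT sum was 269.8 and 305 CPM against 277 and 253 CPM, overlapping between groups with a log2 ratio of -0.12. Without Col12a1 its log2 ratio was -1.08.

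Chains that share a trimer did not all keep their ratio. The log2 ratio of Col1a1 to Col1a2 was 0.91 and 0.92 in imCM-NF and 0.87 and 0.88 in imCM-AF, a shift of -0.04. For Col4a1 over Col4a2 it was 0.46 and 0.52 against 0.28 and 0.21, a shift of -0.24. For Col5a1 over Col5a2 it was 0.41 and 0.37 against 0.07 and 0.03, a shift of -0.34. These 3 shifts separated the groups, again at the smallest exact permutation p of 0.333. The ratios of Col6a1 to Col6a2 and to Col6a3 overlapped between groups.

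The enzymes and chaperones that make collagen moved with it to a lesser degree. Of 31 genes for collagen biosynthesis and processing, 29 were tested, 6 were lower and none was higher (4.99% of all genes were lower), with a median log2 fold change of -0.36 against 0.00 for all genes. At the adjusted p alone, without the fold threshold, 17 were lower and 1 higher, where 14.5% and 12.5% of all genes were. At an unadjusted p below 0.05, edgeR gave 20 lower and 2 higher, and DESeq2 and limma-voom also called 0 higher. The share of all genes past an unadjusted p was not computed, so those counts have no background. The crosslinking enzyme gene Loxl1 stood at 637 and 781 CPM with NFs and at 402 and 335 CPM with AFs (-0.94 ± 0.13, edgeR adjusted p 7.99e-05). The chaperone gene Fkbp10 (-0.77 ± 0.12), the crosslinking enzyme gene Loxl4 (-0.71 ± 0.14) and the prolyl hydroxylase gene P4ha3 (-0.68 ± 0.12) were also lower. Among 9 tested collagen receptor genes, 1 was lower and none higher, where 4.99% and 6.15% of all genes were. Their median was -0.08, and DESeq2 and limma-voom called 0 higher. At an unadjusted edgeR p below 0.05, 4 were lower and 0 higher, again without a background. The gene called lower was Itga11, an integrin chain of fibroblasts that binds fibrillar collagen. It stood at 5.68 and 6.60 CPM with NFs and 3.01 and 3.52 CPM with AFs (-0.91 ± 0.24, edgeR adjusted p 0.0088).

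Markers of other cells moved with the collagen chains. The summed level of 12 fibroblast markers, none of them a collagen, was 2541 and 2896 CPM with NFs and 1451 and 1330.4 CPM with AFs, with 11 of 12 genes below a log2 fold change of 0 and none at 0 CPM in any library. Endothelial markers summed to 1544 and 1652 CPM against 1193 and 1076 CPM, with 12 of 12 below 0. Cardiomyocyte markers summed to 46212 and 33910.0 CPM against 43593 and 47858 CPM, overlapping between groups. Divided by the fibroblast marker sum, the collagen sum was 9.82 and 9.38 in imCM-NF and 12.6 and 11.2 in imCM-AF, which is higher with adult fibroblasts. That direction rests on Postn, a matrix protein gene of activated fibroblasts, which made up 46.3% and 48.9% of the marker sum in imCM-NF and 26.9% and 23.9% in imCM-AF. Over the other 11 markers the collagen ratio was 18.3 in both imCM-NF libraries and 17.2 and 14.7 in imCM-AF, the opposite direction. The fibrillar ratio likewise went from 6.08 and 5.85 against 7.66 and 6.47 with Postn to 11.3 and 11.4 against 10.5 and 8.49 without it. The multiplexin ratio was lower in imCM-AF either way, at 0.185 and 0.183 against 0.173 and 0.161 with Postn and at 0.344 and 0.358 against 0.237 and 0.212 without it. The part of fibroblast RNA in the bulk result was not tested.

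The fold changes and the calls depended on single libraries. Leaving out replicate 2 of imCM-AF moved the median log2 fold change over the tested chains from -0.59 to -0.44. Leaving out replicate 2 of imCM-NF gave -0.54. For replicate 1 the medians were -0.69 (imCM-NF library dropped) and -0.74 (imCM-AF library dropped). When replicate 2 of either group was dropped, calls became fewer over the chains and over all genes alike. In counting, 23 of the 44 chains overlap another RefSeq gene, Col4a1 and Col4a2 each other and Col4a3 and Col4a4 each other, and with an unstranded kit reads in the shared stretch cannot be told apart.

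The single-cell libraries show which wells carried the chains. The authors named each well by a type, and 2254 of 2462 named wells were kept. The cardiomyocytes library had 1290 of these and the fibroblasts library 964. Wells named NFNCM (517), AFNCM (509) and NCM0 (264) are in the first, and wells named NF (251), AF (213), NF0 (318) and AF0 (182) in the second. The labels do not explain these names, and they are used as written. Before filtering, 1648 wells were named NFNCM, AFNCM, NF or AF, the same number as the co-cultured cells the study states. A further 814 wells, named NCM0, NF0 or AF0, lie outside that number. Each name covers 2 or 3 numbered sets of wells, each dispensed from 1 source well. The median depth was 16505 to 43012 UMIs per well, and 269 well barcodes occur in both libraries, which are separate chips. With 1 library per kind of cell no test between kinds can be made, so UMIs scaled to the total of the wells (UMI CPM) are given with 95% exact Poisson intervals, which cover counting error only.

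Collagen UMIs were more abundant in AFNCM than in NFNCM wells, the opposite direction to bulk. All chains summed to 2048 UMI CPM in NFNCM, 3546 in AFNCM and 2259 in NCM0 wells. The 3 NFNCM sets lay at 2304, 2111 and 1734, and the 3 AFNCM sets at 3082, 3624 and 3731, with no overlap. The log2 ratio of AFNCM to NFNCM was 0.79 (interval 0.77 to 0.81) for all chains, 1.30 for fibrillar, 0.20 for basement membrane, 0.69 for beaded, 0.29 for FACIT and 1.82 for multiplexin chains, and -0.27 for network-forming ones. In these wells Col3a1 differed most among abundant chains, at 39.6 to 51.9 UMI CPM over the NFNCM sets and 278 to 317 over the AFNCM sets, a log2 ratio of 2.70 (2.57 to 2.83). Col1a1 ran from 236 to 426 and from 809.6 to 1126 UMI CPM, a log2 ratio of 1.57. Col4a1 overlapped between the sets, with a log2 ratio of 0.18.

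Of 26 chains with at least 20 UMIs over both kinds, 10 had higher AFNCM than NFNCM sets without overlap and none lower, where 15.2% and 5.55% of all genes did. They were Col1a1, Col1a2, Col3a1, Col4a2, Col5a1, Col5a3, Col6a2, Col12a1, Col15a1 and Col18a1. Col15a1 held 2.74 to 3.79 UMI CPM over the NFNCM sets and 10.8 to 28.3 over the AFNCM sets. Col14a1, the chain with the strongest fall in bulk after Col2a1, had overlapping sets and a log2 ratio of -0.22 (-0.46 to 0.02). The share of wells with a Col3a1 UMI was 17.8% in NFNCM and 49.5% in AFNCM. After thinning to 5000 UMIs it was 9.65% of 404 NFNCM and 36.1% of 432 AFNCM wells. Wells with fewer UMIs, 113 NFNCM and 77 AFNCM, were left out of the thinned shares. By size alone, 10 of the 26 chains were beyond 0.58 upward and 1 downward, where 25.6% and 9.62% of all genes were. The median over the 26 chains was 0.29 and that over all genes 0.16.

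**Figure D3:**
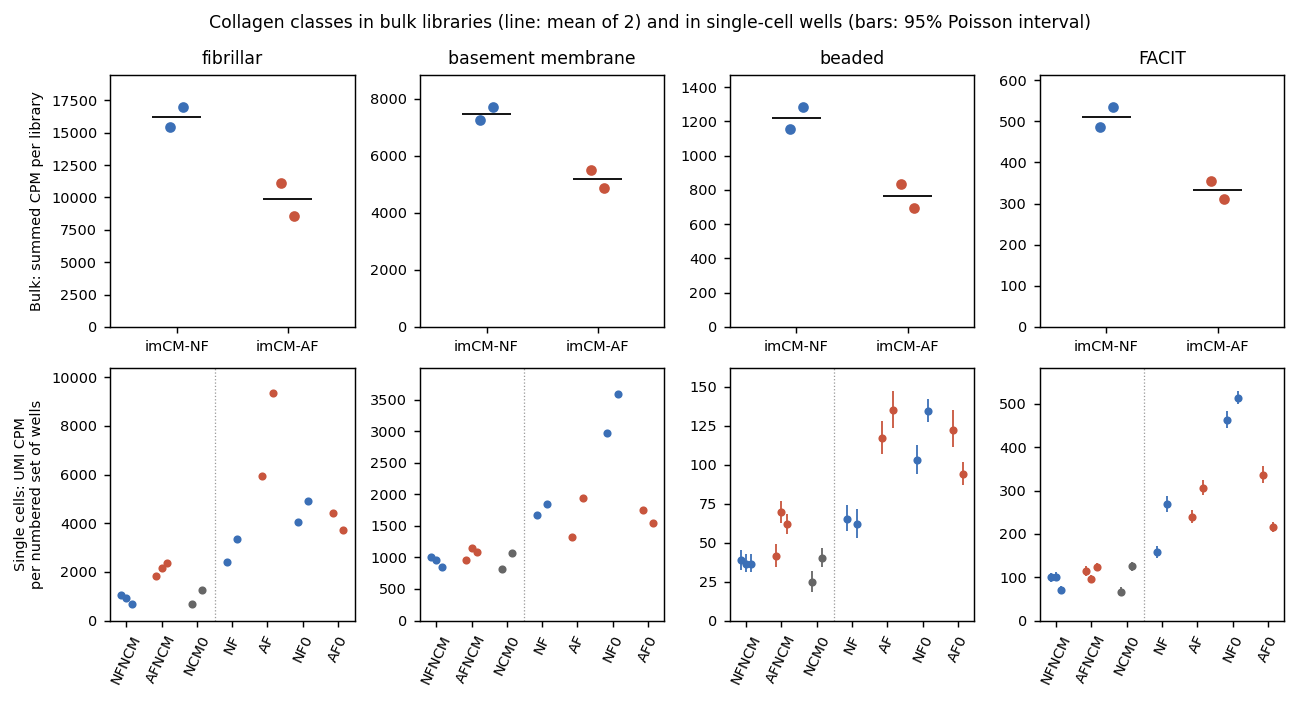
Summed level of 4 collagen classes. Upper row, CPM of each bulk library with a line at the group mean. Lower row, UMI CPM of each numbered set of single-cell wells with 95% Poisson intervals. Bulk sums are lower in imCM-AF for all 4 classes, while fibrillar sums are higher in AFNCM than in NFNCM wells and in AF than in NF wells.

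In the fibroblasts library, AF wells carried more fibrillar collagen than NF wells. All chains summed to 4603 and 5777 UMI CPM in the NF sets and to 7846 and 12028 in the AF sets. The log2 ratio of AF to NF was 0.93 (0.92 to 0.95) for all chains and 1.41 for fibrillar ones, but -0.12 for basement membrane ones. Col3a1 stood at 60.5 and 144.8 UMI CPM in the NF sets and 683 and 1364 in the AF sets, a log2 ratio of 3.35 (3.23 to 3.47). Of 25 chains, 10 were higher and 2 (Col27a1 and Col4a5) lower in AF without overlap, against 27.6% and 16.3% of all genes, and 12 and 2 were beyond 0.58, against 29.6% and 16.6%. Col4a5 had 57.2 and 76.0 UMI CPM in the NF sets and 32.4 and 33.1 in the AF sets.

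AF0 and NF0 wells gave another order. All chains summed to 8010.3 and 9807 UMI CPM in the NF0 sets and to 7134 and 6136 in the AF0 sets, a log2 ratio of -0.51 (-0.52 to -0.49), with -1.06 for basement membrane chains. Of 30 chains, 14 were lower and 4 higher in AF0 without overlap, against 23.9% and 28.8% of all genes, and 14 and 6 were beyond 0.58, against 21.9% and 27.2%. Col14a1 had 1235 UMIs in NF0 and 17 in AF0 wells, and Col6a3 had 290 and 8. Col3a1 was higher in AF0, at 218 and 239 UMI CPM in the NF0 sets and 405.5 and 383.7 in the AF0 sets. Nearly all AF0 wells (179 of 182) formed a cluster of their own, which raised 3 of 12 fibroblast, 7 of 12 endothelial and 4 of 8 epicardial or mesothelial markers and was left unnamed. The AF0 and NF0 values thus compare wells of different clusters.

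Marker sums differed between these wells too. Fibroblast markers summed to 504 UMI CPM in NFNCM and 900.4 in AFNCM wells, endothelial markers to 152 and 602, and cardiomyocyte markers to 50082 and 41844. In NF and AF wells the fibroblast sum was 1147 and 2171. Wells were therefore clustered without the collagen chains and classed by markers, which gave 724 fibroblast-like, 796 cardiomyocyte-like, 117 endothelial-like and 40 macrophage-like wells, with 577 unnamed. The largest unnamed cluster, number 12 with 246 wells, raised 9 of the cardiomyocyte markers but had a median of only 4878.5 UMIs and no marker among its leading genes. It took in 86 of 517 NFNCM and 138 of 509 AFNCM wells. These classes were rebuilt here and may differ from those of the study, and no doublet caller was run, since wells were imaged for single cells per the study's methods.

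Col4a1 and Col1a1 were among the 3 leading chains of every class. In fibroblast-like wells Col1a1 led with 2335 UMI CPM, before Col4a1 with 1923 and Col1a2 with 1415. In cardiomyocyte-like wells Col4a1 led with 497 UMI CPM, before Col1a1 with 265 and Col4a2 with 189. Endothelial-like wells held 1503 UMI CPM of Col4a1, 614 of Col1a1 and 415 of Col1a2. They also held 91.4 of Col18a1, mostly in cluster 15 (204), and 52.9 of Col23a1, all of it in cluster 7. Macrophage-like wells held 967 of Col4a1, 622 of Col1a1 and 383 of Col1a2, and 1155 of their 1177 Col1a1 UMIs came from the fibroblasts library.

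**Figure D4:**
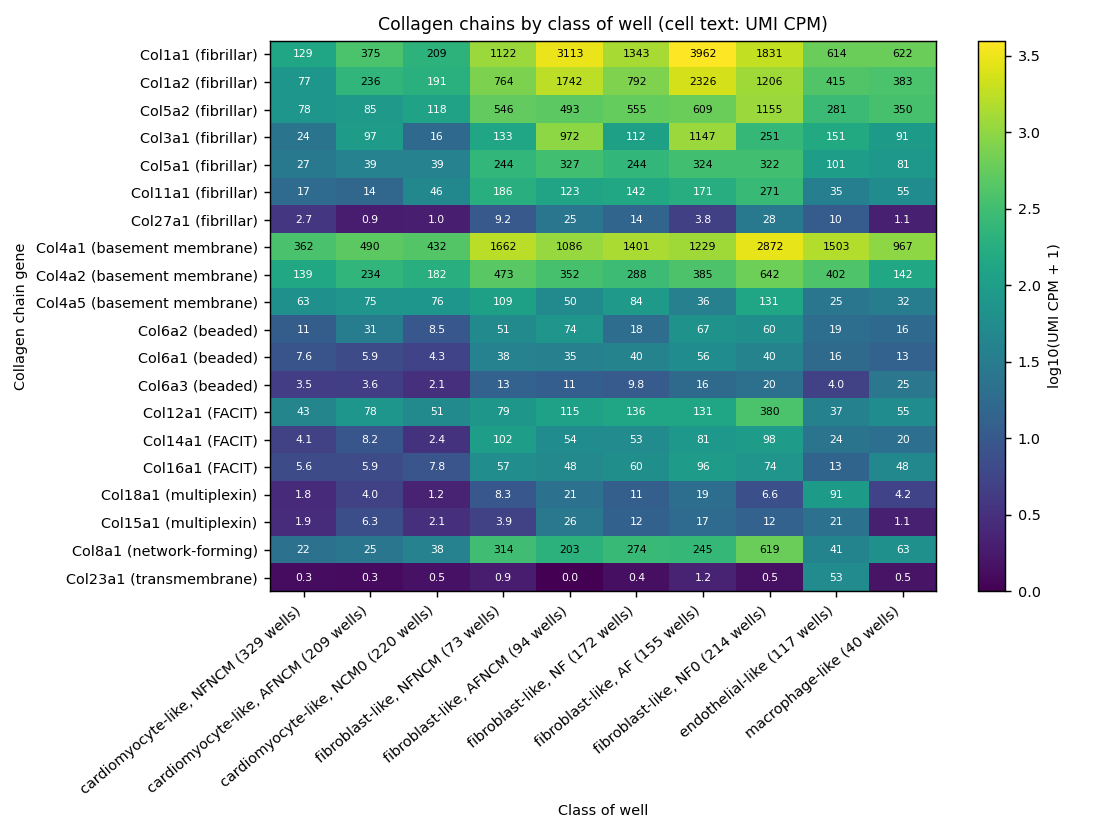
UMI CPM of collagen chains (rows, ordered by class) in classes of wells (columns, with the number of wells), coloured by log10(UMI CPM + 1). Col1a1, Col1a2 and Col3a1 are highest in fibroblast-like AF wells, Col4a1 is present in every class, and Col23a1 is highest in endothelial-like wells.

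Macrophage-like wells, which should lack fibrillar collagen, served as the background for cardiomyocyte-like wells. In the cardiomyocytes library, 55.0% of cardiomyocyte-like wells (51.4 to 58.6, exact binomial) held a Col1a1 UMI, and so did 47.4% of macrophage-like wells (24.4 to 71.1, 19 wells). At median depths of 23650.5 and 24590.0 UMIs these shares overlap. The pooled levels differed, with 234 UMI CPM of Col1a1 in cardiomyocyte-like wells and 31.7 (22 UMIs) in macrophage-like wells. The cardiomyocyte-like wells include 108 of cluster 8, which also raised 2 fibroblast markers, and the level without them is not given. In the fibroblasts library, where macrophage-like wells (21) held 964 UMI CPM of Col1a1 and cardiomyocyte-like wells (38) held 709, the background was not below the signal. In the cardiomyocytes library the shares for Col4a2 were 73.5% (70.2 to 76.6) and 31.6% (12.6 to 56.6). They were 43.7% (40.1 to 47.3) and 5.26% (0.133 to 26.03) for Col4a5, and 35.2% (31.8 to 38.7) and 5.26% for Col12a1, with intervals that do not overlap. Intervals overlapped for Col4a1, at 83.0% (80.1 to 85.6) and 68.4% (43.4 to 87.4). They also did for Col1a2 (45.5% and 47.4%), Col3a1 (19.1% and 21.1%) and Col5a2 (31.0% and 21.1%). The same held for Col18a1 (2.51% and 10.5%) and Col23a1 (1.06% and 5.26%). The make-up differed from that of fibroblast-like wells of the same library. For every 100 Col1a1 UMIs, cardiomyocyte-like wells held 181 of Col4a1 and 30.1 of Col4a5, and fibroblast-like wells 66.3 and 3.40. Macrophage-like wells held more, 482 and 40.9, though on 22 Col1a1 UMIs and with Col4a5 in 1 well. Endothelial-like wells held 224 and 4.91.

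Within classes the direction of the fibrillar chains was that of the whole wells. In fibroblast-like wells the fibrillar sum was 3009 UMI CPM in NFNCM (73 wells) and 6808 in AFNCM (94 wells), a log2 ratio of 1.18 (1.14 to 1.22), and 3206 in NF and 8558 in AF, a ratio of 1.42. The basement membrane sum was 2249 and 1490.2 in the former, a log2 ratio of -0.59 (-0.65 to -0.54), and 1779 and 1659 in the latter, a ratio of -0.10. Col14a1 was lower in fibroblast-like AFNCM than NFNCM wells, with a log2 ratio of -0.91 (-1.21 to -0.61), and higher in AF than NF wells, with 0.61 (0.39 to 0.82). Of the fibroblast-like wells, 72 of 73 NFNCM and 172 of 172 NF wells lay in clusters 1 and 4, and 94 of 94 AFNCM and 150 of 155 AF wells in cluster 3.

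In cardiomyocyte-like wells all chains summed to 1035 UMI CPM in NFNCM (329 wells) and 1830.4 in AFNCM (209 wells), a log2 ratio of 0.82. It was 1.26 for fibrillar and 0.49 for basement membrane chains. Most of these NFNCM wells lay in clusters 10 and 11 and most AFNCM wells in cluster 13. Cluster 8 (131 wells) also raised 2 fibroblast markers and held 3940 UMI CPM of collagen, and without it the log2 ratios were 1.27, 2.47 and 0.83. With cluster 12 added they were 0.82, 1.30 and 0.42. Col4a5 had 63.3 UMI CPM in NFNCM and 74.6 in AFNCM cardiomyocyte-like wells.

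A small number of wells carried much of the collagen. In NFNCM, the 52 of 517 wells with the most collagen held 66.1% of its UMIs, while fibroblast-like wells (73) held 53.5% and cardiomyocyte-like wells (329) 37.3%. In AFNCM the shares were 50.4% in fibroblast-like, 28.0% in cardiomyocyte-like and 15.7% in endothelial-like wells. In both kinds of well the fibroblast-like ones, though fewer, held more collagen UMIs than the cardiomyocyte-like ones. In NCM0 wells the order was the other way, with 33.1% in 16 fibroblast-like and 55.6% in 220 cardiomyocyte-like wells.

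Set side by side, many chains had opposite signs in bulk and in single wells. For 22 chains with counting intervals narrower than 1.5 on the log2 scale, 12 were below 0 in bulk and above 0 in AFNCM over NFNCM, 6 were below 0 in both, 3 were above 0 in bulk and below 0 in the wells, and 1, Col12a1, was above 0 in both. The share of all genes with each pair of signs was not computed, so these counts have no background. Over all genes the median log2 value was 0.00 in bulk and 0.16 in the wells. Col3a1, Col15a1 and Col18a1 stood farthest apart. The files hold no genotype or other mark by which the bulk labels or the names of the wells could be checked against each other. The bulk libraries and the wells were made by different library methods, and whether they share cultures is not stated. The difference itself could not be tested with 1 library of wells.

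**Figure D5:**
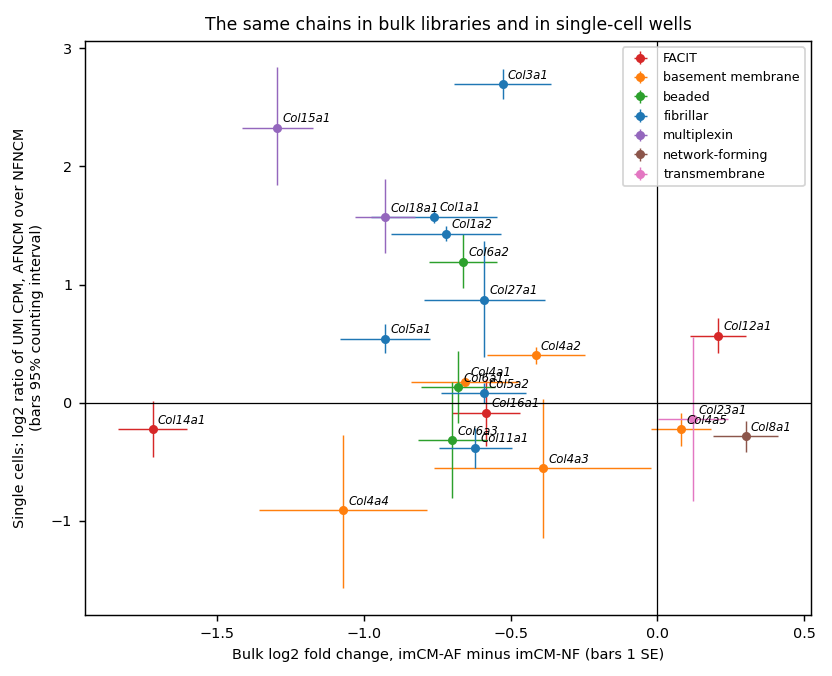
Bulk log2 fold change (imCM-AF minus imCM-NF, bars 1 SE) against the log2 ratio of UMI CPM in AFNCM over NFNCM wells (bars 95% counting interval), 1 point per chain, coloured by class. Most points lie to the left of 0, and 12 of 22 lie to the left and above. The share over all genes was not computed.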

How the data were processed

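Bulk RNA of 4 sorted cardiomyocyte libraries and UMI counts of 2 single-cell libraries were analysed. For bulk, the authors deposited raw counts per gene. Per the study's methods and the submitters' processing notes, reads were placed on mm10 by subread (the notes give Subread 1.4.6-p1), only unique placements were retained, and RefSeq genes were counted by Entrez identifier with featureCounts. Strand use in counting is not given in the sources used here. The single-cell files deposited by the authors hold UMI counts for each gene in each well, after alignment with STAR 2.5.2b, with a report of read pairs per well. Spike-in columns were not used, and 0 columns belonged to other samples.

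Symbols were matched to all 27179 identifiers through RefSeq. Counts were fitted with edgeR 4.0.16 in R 4.3.3 (TMM scaling, group as the only term, quasi-likelihood test) over 14041 genes with a CPM over 1 in at least 2 libraries, with Benjamini-Hochberg adjustment over all of them. A call needed adjusted p below 0.05 and a log2 fold change beyond 0.58 either way. The SE is the log2 fold change divided by the square root of F. On data simulated from these libraries, 195 of 200 genes changed by 1.5 on the log2 scale were recovered among 14041, with 5 false calls. Levels per kilobase use the transcript with the longest coding sequence. The study used limma and an RPKM filter, which are among the alternatives, as are DESeq2 1.42.0, other scalings, a replicate block and single libraries left out.

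A well was used if it held 500 genes or more, had over 50% of its read pairs aligned and lay within 2 SD of the mean UMI total, and 34 mitochondrial genes were left out. Clusters (scanpy 1.11.5, 2000 variable genes without collagen chains, 10 principal components, 30 neighbours) were named where at least 3 markers of a type were raised over the median cluster, over 1.5 times as many as of any other type, and no other type had more markers among the 10 leading genes. A cluster whose median UMI count was under 1 in 3 of that of its library, with none of its markers among those genes, stayed unnamed. This rule was set after the data were seen. Intervals hold at 95%. Shares of wells were also computed after thinning to 5000 UMIs, with wells that held fewer left out.

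The chains, classes and lists were chosen with earlier results of these data known. Named in the text are all called chains, up to 3 of the most abundant of each class, those within 0.1 of the fold threshold, up to 4 called genes of each list, and the 3 leading chains of each class of wells. Singled out after their values were seen were Col4a6, Col4a3, Col9a1, Col9a2 and Col22a1 in bulk, and Col18a1, Col23a1 and Col4a5 in wells.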

Additional observations from a re-analysis of the deposited data

Results flagged for a closer look

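Collagen sums moved in opposite directions in bulk and in single wells. In AFNCM over NFNCM wells the log2 ratio was 0.79 for all chains, 1.30 for fibrillar, 0.69 for beaded and 1.82 for multiplexin chains, with every numbered AFNCM set above every NFNCM set, while both imCM-AF bulk libraries lay under both imCM-NF libraries for the same sums. The difference was not tested.

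Positive control wells, which enter none of the comparisons above, also held collagen UMIs. Levels were 4205 UMI CPM in the cardiomyocytes library (80 of 19026 UMIs) and 5967 UMI CPM in the fibroblasts library (295 of 49439 UMIs). The negative control wells held 1 collagen UMI of 1465 and 17 of 3587, or 683 and 4739 UMI CPM. Their exact Poisson intervals, 17.3 to 3803 and 2761 to 7588, overlapped those of the positive controls, 3334 to 5233 and 5305 to 6688. In the fibroblasts library, NF (5130) and AF0 (6477) wells lay within the negative control interval, and AF (9806) and NF0 (9194) wells above it. The negative control wells there had a median of 217 UMIs, against 16587 in NF and 43011.5 in AF0 wells. The scaled values thus set nearly empty wells beside deep ones. Of the 17 collagen UMIs of these controls, 11 came from 1 well, a spread that the Poisson interval does not cover.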

How the results depend on the processing

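In bulk, the 17 lower calls among collagen chains became 4 at an absolute log2 fold change over 1 and ranged from 7 to 18 over the fits without a library, with 2 to 3 higher calls. Under other scalings, filters and tools between 16 and 20 chains were called in all. Same-numbered libraries did not deviate together (r = -0.15 over all genes), so their numbers only name them. A replicate block on these numbers gave 15 called chains, and the crossed pairing, added after the data were seen, gave 19. For biosynthesis genes the 6 lower calls became 17 (and 1 higher) at the adjusted p alone, 0 at a log2 fold change over 1, and 3 to 10 with 0 to 1 higher when a library was left out. For receptor genes the 1 lower call became 0 at a log2 fold change over 1 and with DESeq2 (which called 0 receptor genes, and edgeR 1), 2 with the crossed pairing, and 0 to 1 when a library was left out. Col7a1 changed sign to -0.15 without imCM-NF replicate 1 (range -0.15 to 0.30 over libraries left out) and Col13a1 to -0.020 without imCM-NF replicate 2 (range -0.020 to 0.28), neither being called. Of 457 other settings for single genes, 45 kept their direction and lost the call.

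The class sums were also taken without the most abundant chain. Their log2 ratio was then -0.37 for basement membrane, -0.64 for other, -0.55 for network-forming, -1.08 for FACIT and -1.29 for multiplexin chains. The values for other and network-forming chains rest only on chains too low to be tested. Added after the data were seen, the FACIT sum without Col14a1 gave -0.12, and the sum of all chains over the fibroblast marker sum went from 0.31 to -0.20 without Postn.

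For AFNCM over NFNCM, the mean of single wells gave log2 ratios of 0.83 (all chains), 1.34 (fibrillar), 0.45 (FACIT), 1.05 (beaded) and 2.20 (multiplexin). With a limit on genes alone they were 0.73 (all), 1.22 (fibrillar) and 0.13 (basement membrane). Without the 5% of wells with most UMIs they were 0.84 (all), 1.37 (fibrillar) and -0.10 (network-forming). For AF over NF, the mean of wells gave 0.75 (all), 1.18 (fibrillar), 0.26 (FACIT), -0.21 (basement membrane) and 1.28 (multiplexin), and the limit on genes alone 0.80, 1.29, 0.15, -0.26 and, for network-forming chains, -0.21. For AF0 over NF0, the mean of wells gave -0.38 (all), -0.10 (fibrillar), -0.70 (FACIT), -1.01 (basement membrane) and 0.18 (network-forming), the limit on genes alone -0.49 (all), -0.99 (basement membrane) and 0.026 (network-forming), and fewer deep wells -0.53, -1.12 and -0.12.

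In cardiomyocyte-like wells, AFNCM over NFNCM became, without cluster 8 (added after the data were seen), 1.27 (all), 2.47 (fibrillar), 0.98 (FACIT), 0.83 (basement membrane), 1.21 (beaded) and 2.34 (network-forming). With cluster 12 (likewise added) the basement membrane value was 0.42. Without the deepest wells it was 0.62 (all), 0.91 (fibrillar), 0.44 (basement membrane), 0.63 (beaded) and 0.75 (multiplexin), and as a mean of wells 0.55 (basement membrane), 1.24 (beaded) and 0.64 (network-forming). In fibroblast-like wells the mean of wells gave 0.54 (all), 1.12 (fibrillar), 0.78 (beaded), -1.01 (network-forming) and 2.67 (multiplexin), and fewer deep wells -0.51 (basement membrane). For fibroblast-like AF over NF it gave 0.85 (all), 1.28 (fibrillar), 0.20 (FACIT), -0.16 (basement membrane) and 1.0 (multiplexin). The cause of these shifts was not tested.

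With 2 libraries per group and 1 library of wells per kind of cell, small differences and rare chains are limited by depth, and the direction in wells has no replicate check.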
